A study of Mus musculus with 4 samples.

Results

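The genes described here were 10 transcriptional targets of the tumour suppressor p53, namely Mdm2, Ccng1, Trp53inp1, Bax, Phlda3, Eda2r, Zmat3, Sesn2, Gdf15 and Btg2, out of 32285 features in the deposited matrices. They were taken by their symbols, and each symbol matched 1 feature whose Ensembl identifier was that of a protein-coding gene of the same name. They were selected on their summed UMIs in mesenchyme-like cells of Din-KO against WT libraries. That contrast is thus given as a description, and calls in it are no test of the genes.

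The study prepared single cells from the proximal end of the lower incisor of mice at postnatal day 15, where mesenchymal and epithelial stem cells feed a tooth that grows throughout life. The WT group and the Din-KO group had 2 libraries each. Replicate numbers here are those of the sample titles, while the descriptions name the replicate 1 libraries WT-2 and KO-2 and the replicate 2 libraries CD1-WT and CD2-KO, so what a shared number marks is not stated. Din-KO mice carried the tm1b allele of Din, made from a gene-trap clone of embryonic stem cells by germline Cre, which removes an exon and leaves a lacZ reporter under the Din promoter in every cell of the animal. How many mice went into a library, and of which genetic background, is not stated, so the p-values below measure only the spread between these libraries.

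p53 is a transcription factor that is held at a low level by the ubiquitin ligase Mdm2 and accumulates after DNA damage and other stresses. Its targets stop the cell cycle, start apoptosis, restrain growth signals and, through Mdm2 itself, close a negative feedback loop. Some of them answer to other factors as well. Btg2 is also an immediate early gene, and Sesn2 and Gdf15 are also targets of the integrated stress response, so that the genes need not move as a block.

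Promoter windows around annotated start sites were held for 8 of the 10 genes, from RefSeq on GRCm38.p6, and were searched for the p53 response element. This element is a pair of decamers, and the spacer allowed here was 0 to 13 bases. The element is palindromic, so the search covered both strands. The closest match of any member lay in the window of Ccng1 and had 1 mismatch over 20 bases, and that of Bax had 2. A match within 1 mismatch was present in 0.627% of 32851 promoter windows and one within 2 mismatches in 4.09%. The remaining members with a window had 4 to 6 mismatches, and a match within 4 was present in 40.4% of windows. The search required the core C and G of each decamer to match. Sequence outside these windows was not searched, so the mismatches do not show that a gene lacks an element. Btg2 held instead a cAMP response element, TGACGTCA, which was present in 1.79% of windows. No member's window held the AP-1 motif, TGACTCA or TGAGTCA, present in 5.20% of windows, or the ATF4 motif TGATGNAA, present in 3.97%. The windows of Ccng1 (chr11:40755237-40755536, minus strand), Bax (chr7:45466849-45467148, minus strand) and Btg2 (chr1:134079106-134079405, minus strand) are printed because they held these matches. Capitals mark the p53 match in Ccng1 and Bax and the cAMP response element in Btg2, and a match describes letters, not binding.
Ccng1: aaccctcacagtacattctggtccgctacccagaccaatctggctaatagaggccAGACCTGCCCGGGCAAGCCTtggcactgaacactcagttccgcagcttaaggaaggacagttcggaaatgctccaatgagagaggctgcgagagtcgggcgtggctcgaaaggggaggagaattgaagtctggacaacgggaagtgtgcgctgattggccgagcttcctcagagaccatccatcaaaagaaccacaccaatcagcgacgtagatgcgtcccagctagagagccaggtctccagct
Bax: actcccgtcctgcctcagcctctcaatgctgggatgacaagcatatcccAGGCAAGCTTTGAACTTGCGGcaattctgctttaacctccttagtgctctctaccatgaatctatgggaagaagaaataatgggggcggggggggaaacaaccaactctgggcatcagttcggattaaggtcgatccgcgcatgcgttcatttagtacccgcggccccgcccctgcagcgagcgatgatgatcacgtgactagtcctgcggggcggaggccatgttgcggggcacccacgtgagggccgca
Btg2: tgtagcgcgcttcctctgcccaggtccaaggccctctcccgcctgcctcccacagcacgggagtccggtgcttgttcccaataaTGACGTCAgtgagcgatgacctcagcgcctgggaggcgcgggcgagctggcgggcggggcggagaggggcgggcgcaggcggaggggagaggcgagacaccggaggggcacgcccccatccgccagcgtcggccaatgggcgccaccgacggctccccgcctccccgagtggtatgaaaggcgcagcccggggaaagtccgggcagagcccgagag

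Total UMIs (unique molecular identifiers, each counting a captured transcript near its 3′ end) ranged from 32198098 to 54348039 a library. Filters on genes, mitochondrial and hemoglobin UMIs kept 11310 of 20502 barcodes. Of these, 7156 cells were mesenchyme-like. The clusters among them were named pulp-like, follicle-like or odontoblast-like after the marker list with the highest score, or left unnamed. The names are relative. That highest score was negative in the largest pulp-like cluster (-0.62, 1272 cells) and in a smaller pulp-like one (-0.28, 533 cells). It was also negative in the larger odontoblast-like cluster (-0.34, 622 cells). The libraries labelled replicate 1 and replicate 2 differed more than the genotypes in what they held. Follicle-like cells made up 12.6% and 12.05% of mesenchyme-like cells in WT and Din-KO replicate 1, against 50.1% and 48.8% in replicate 2, where the median depth of mesenchyme-like cells was also higher (15056.5 and 14085 UMIs against 9233 and 7586). Pairs of libraries shared 4 to 12 barcodes. Mesenchyme-like cells with a Y-linked UMI and at most 1 UMI of Xist were absent from both WT libraries. They made up 43.4% and 43.7% of the mesenchyme-like cells of the Din-KO libraries. Cells with a Y-linked UMI and more Xist UMIs were not counted. Levels are given as CPM, the UMIs of a gene in a set of cells scaled to the same total of all UMIs in each set. Din itself was at 36.4 and 28.5 CPM in WT mesenchyme-like cells and at 22.7 and 28.3 CPM in Din-KO cells. Whether the counted 3′ ends lie outside the removed exon was not tested, so these values do not check the genotype. Values below are CPM of UMIs summed per library and cell set, and pairs of values are given as replicate 1 and then replicate 2. The pulp markers summed to 5783 and 4589 CPM in WT and 4320 and 3790 CPM in Din-KO pulp-like cells. In follicle-like cells they summed to 4837 and 5109 CPM in WT and 4725 and 5489 CPM in Din-KO. This list thus did not set pulp-like apart from follicle-like cells. The follicle markers did, with 1032 to 1351 CPM in pulp-like and 4438 to 5370 CPM in follicle-like cells.

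In mesenchyme-like cells as a whole, 8 of the 10 genes were higher in both Din-KO libraries than in both WT libraries, and Mdm2 and Btg2 overlapped. Of all 15287 genes tested, 11.3% had this order, but nothing is read from the comparison because the genes were picked for it. The median log2 fold change of the 10 genes was 1.14, against -0.021 over all genes. Over the whole table edgeR called 0% of 15287 genes at an adjusted p of 0.05, and no p-value of a member is given for this contrast.

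The growth restraining targets were Phlda3, whose pleckstrin homology domain competes with Akt at the membrane, and Sesn2, an inhibitor of mTORC1. Phlda3 was at 43.6 and 55.5 CPM in WT, against 83.6 and 139 CPM in Din-KO mesenchyme-like cells, a log2 difference of 1.13 ± 0.32 (SE, 2 libraries a group). Sesn2 was at 4.90 and 6.69 CPM in WT, against 9.75 and 20.8 CPM in Din-KO, a log2 difference of 1.35 ± 0.45. For both genes the gap between the Din-KO libraries was wider than that between the WT libraries. Ccng1, an atypical cyclin that recruits a phosphatase to Mdm2, was at 16.3 and 23.7 CPM in WT, against 31.0 and 60.7 CPM in Din-KO (log2 difference 1.16 ± 0.40). Zmat3, an RNA-binding zinc finger protein, was at 8.60 and 14.7 CPM in WT, against 23.6 and 44.5 CPM in Din-KO (log2 difference 1.51 ± 0.43).

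Among the death and receptor genes, Bax, which permeabilises the mitochondrial outer membrane, had the smallest difference of the 10. It was at 182 and 146 CPM in WT, against 194 and 239 CPM in Din-KO, a log2 difference of 0.36 ± 0.23. Eda2r, the receptor for ectodysplasin A2, is encoded on the X chromosome, and the libraries differed in sex. It went from 7 and 5 UMIs in all WT mesenchyme-like cells to 140 and 124 UMIs in Din-KO cells (log2 difference 4.69 ± 0.57). Gdf15, a secreted member of the TGF-beta family, had 7 and 5 UMIs in WT and 21 and 67 UMIs in Din-KO. The Gdf15 UMIs of Din-KO came from 10 and 20 cells, with up to 7 and 15 UMIs in 1 cell, so a few cells carried this gene.

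Mdm2 and Trp53inp1 act back on p53 itself. Mdm2 was at 21.2 and 27.3 CPM in WT, against 24.1 and 44.3 CPM in Din-KO (log2 difference 0.45 ± 0.35), so Din-KO replicate 1 lay within the WT range. Trp53inp1, which promotes p53 phosphorylation in nuclear bodies, was at 55.5 and 26.9 CPM in WT, against 58.8 and 67.6 CPM in Din-KO (0.57 ± 0.40). Btg2, which recruits the deadenylase complex and slows proliferation, was at 40.9 and 49.6 CPM in WT, against 49.2 and 102 CPM in Din-KO (0.70 ± 0.39). Trp53, which encodes p53, was at 70.7 and 77.7 CPM in WT, against 90.7 and 96.5 CPM in Din-KO. Among 33 measured genes of another list of p53 targets, 28 had a log2 fold change above 0, against 6968 of all 15287 genes, and the median was 0.36. That list too was chosen with earlier results of these data known, so its values are a description and no independent check. Cdkn1a, the cell cycle inhibitor p21, was at 84.0 and 149 CPM in WT, against 180 and 364 CPM in Din-KO.

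The sum over mesenchyme-like cells mixes cell sets that the replicates held in different shares, so each set was summed alone. The sets are parts of the cells whose UMIs chose the genes, and their genotype values are a description too. In follicle-like cells all 10 genes were higher in both Din-KO libraries than in both WT libraries, an order found in 15.6% of 12982 genes. Their median log2 fold change was 1.73, against -0.017 over all genes. In pulp-like cells 4 of the 9 members tested had the order (Ccng1, Phlda3, Eda2r and Zmat3), against 10.3% of 13700 genes, and Trp53inp1 had the opposite one. In odontoblast-like cells 5 of 9 had it (Ccng1, Trp53inp1, Phlda3, Eda2r and Zmat3), against 11.4% of 11695 genes. Eda2r, counted in each set, and Gdf15, counted in follicle-like cells, each had 7 and 5 UMIs in all WT mesenchyme-like cells. They passed the filter on low counts through their Din-KO UMIs, so their order follows from passing it. The median log2 fold change of the members tested was 0.31 in pulp-like and 0.98 in odontoblast-like cells.

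**Figure D1:**
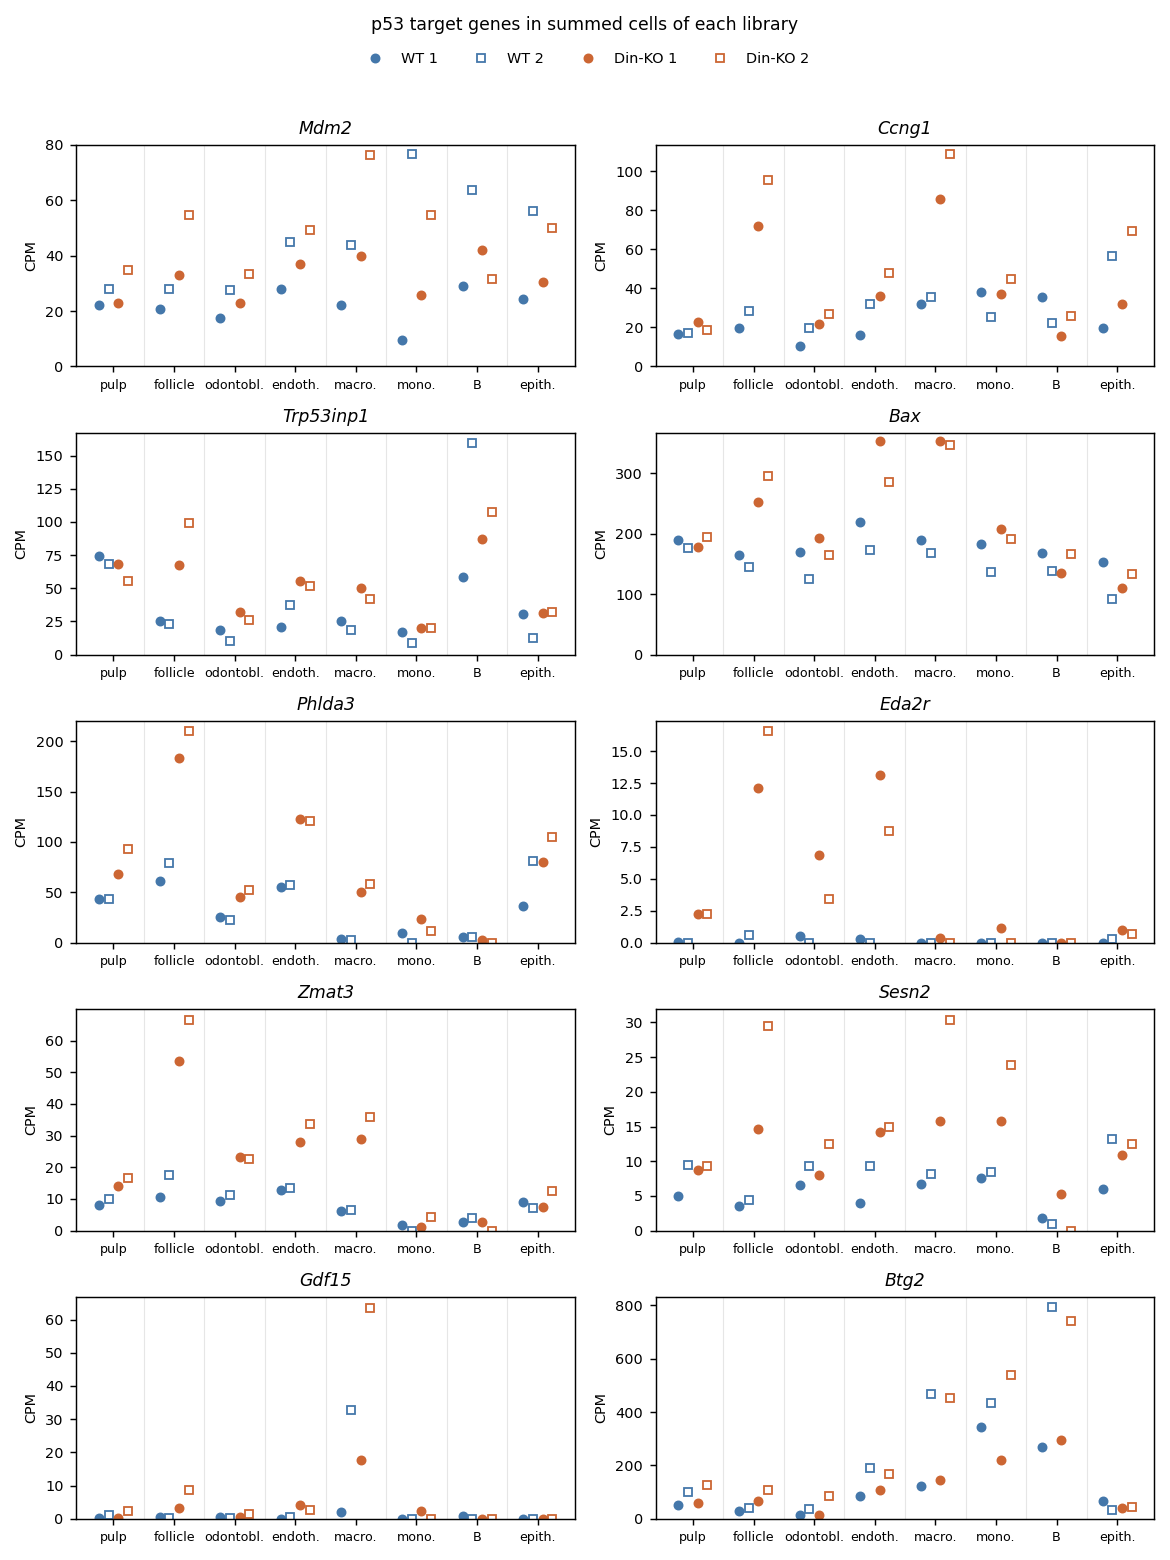
Each panel shows 1 gene, with CPM of summed UMIs on a linear vertical axis and cell sets along the horizontal axis (pulp-like, follicle-like, odontoblast-like, endothelium-like, macrophage-like, monocyte or dendritic-like, B-like and epithelium-like). Each point is 1 library, filled circles for replicate 1 and open squares for replicate 2, blue for WT and orange for Din-KO. In the follicle column the Din-KO points lie above the WT points for all 10 genes, while in the Btg2 panel the squares of both genotypes lie above the circles in B-like and macrophage-like cells.

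Ccng1, Zmat3 and Phlda3 differed between the genotypes in both follicle-like and pulp-like cells without overlap. Ccng1 was at 19.7 and 28.2 CPM in WT, against 72.0 and 95.4 CPM in Din-KO follicle-like cells, but at 16.7 and 17.3 CPM in WT, against 22.6 and 18.7 CPM in Din-KO pulp-like cells. Zmat3 was at 10.5 and 17.7 CPM in WT, against 53.7 and 66.6 CPM in Din-KO follicle-like cells. In pulp-like cells Zmat3 was at 8.04 and 9.88 CPM in WT, against 14.1 and 16.5 CPM in Din-KO. Phlda3 was the highest of these 3 in pulp-like cells as well, with 43.2 and 43.0 CPM in WT, against 67.9 and 92.6 CPM in Din-KO. Its follicle-like levels were 61.5 and 79.1 CPM in WT, against 183 and 210 CPM in Din-KO.

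Trp53inp1 differed in its base level between the sets. In WT it was at 74.3 and 68.4 CPM in pulp-like cells and at 25.0 and 23.2 CPM in follicle-like cells. In Din-KO it was at 68.3 and 55.7 CPM in pulp-like cells and at 67.5 and 98.8 CPM in follicle-like cells, so the sets stood apart in WT and overlapped in Din-KO. Bax was at 189 and 177 CPM in WT pulp-like cells and at 178 and 194 CPM in Din-KO ones, which overlapped. In follicle-like cells Bax was at 165 and 144 CPM in WT, against 252 and 297 CPM in Din-KO.

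Sesn2 was at 3.51 and 4.45 CPM in WT, against 14.6 and 29.5 CPM in Din-KO follicle-like cells. Mdm2 was at 20.7 and 27.9 CPM in WT, against 33.1 and 54.7 CPM in Din-KO, the smallest separation in that set. Btg2 was at 29.5 and 40.5 CPM in WT, against 65.8 and 107 CPM in Din-KO. Both Din-KO libraries were thus above the WT pair for these 3 genes too, with replicate 2 the higher of the Din-KO libraries. The rarest pair, Eda2r and Gdf15, had 0 and 5 UMIs and 2 and 1 UMIs in WT follicle-like cells. In Din-KO follicle-like cells Eda2r had 63 and 107 UMIs and Gdf15 had 17 and 57 UMIs.

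Follicle-like cells formed 3 clusters, led by Sfrp2, by Bmp3 and by Spp1 with Mmp13. Sfrp2 was itself in the pulp marker list. Ccng1 was at 18.1 and 30.9 CPM in WT, against 58.3 and 103 CPM in Din-KO in the Sfrp2 cluster. In the Bmp3 cluster it was at 19.4 and 23.8 CPM in WT, against 63.4 and 78.8 CPM in Din-KO. In the Spp1 cluster it was at 22.9 and 35.1 CPM in WT, against 171 and 117 CPM in Din-KO. The 2 groups did not overlap in any of the 3 clusters. Cdkn1a, at 44.7 and 16.9 CPM in WT, against 288 and 374 CPM in Din-KO follicle-like cells, was likewise apart in each of them.

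The difference between the genotype effects in follicle-like and pulp-like cells was fitted with each library as a block. Both sets were part of the sum that chose the genes, and the comparison was added after seeing the data. Neither the direction nor the p-values are thus independent of the choice, and the calls below are no test of the genes. The difference was positive for all 10 genes, with a median of 1.20 on the log2 scale against -0.0036 over all genes. Trp53inp1 had a difference of 1.87 ± 0.29 (SE), Sesn2 one of 1.85 ± 0.42, Ccng1 one of 1.42 ± 0.30 and Zmat3 one of 1.33 ± 0.26. Btg2 followed with 0.98 ± 0.22, Bax with 0.74 ± 0.15, Mdm2 with 0.59 ± 0.20 and Phlda3 with 0.58 ± 0.21. None of these was past an adjusted p of 0.05 in edgeR, where 0% of 13729 genes were, and 8 of the 10 were under an unadjusted 0.05, as were 3.29% of all genes. DESeq2 called Trp53inp1 alone of the 10 (1.90, adjusted p = 0.0185). The share of all genes that DESeq2 called in this fit is not given, so nothing is read from that count. Against odontoblast-like cells the difference was also positive for all 10 (median 0.76), with 4 under an unadjusted p of 0.05 beside 2.27% of all genes, and edgeR called 0% of 13324 genes. DESeq2 called none of the 10 there.

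Markers of other cell types were summed in the same follicle-like cells. The 9 macrophage markers were at 141 and 32.9 CPM in WT, against 254 and 94.95 CPM in Din-KO, with 3 of the 9 higher in both Din-KO libraries. The 7 endothelium markers were at 21.3 and 20.1 CPM in WT, against 49.8 and 26.8 CPM in Din-KO, with 6 of the 7 higher in both. In macrophage-like cells themselves the macrophage markers were at 18052 to 21919 CPM. The part of these markers in the values of the p53 targets was not tested.

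**Figure D2:**
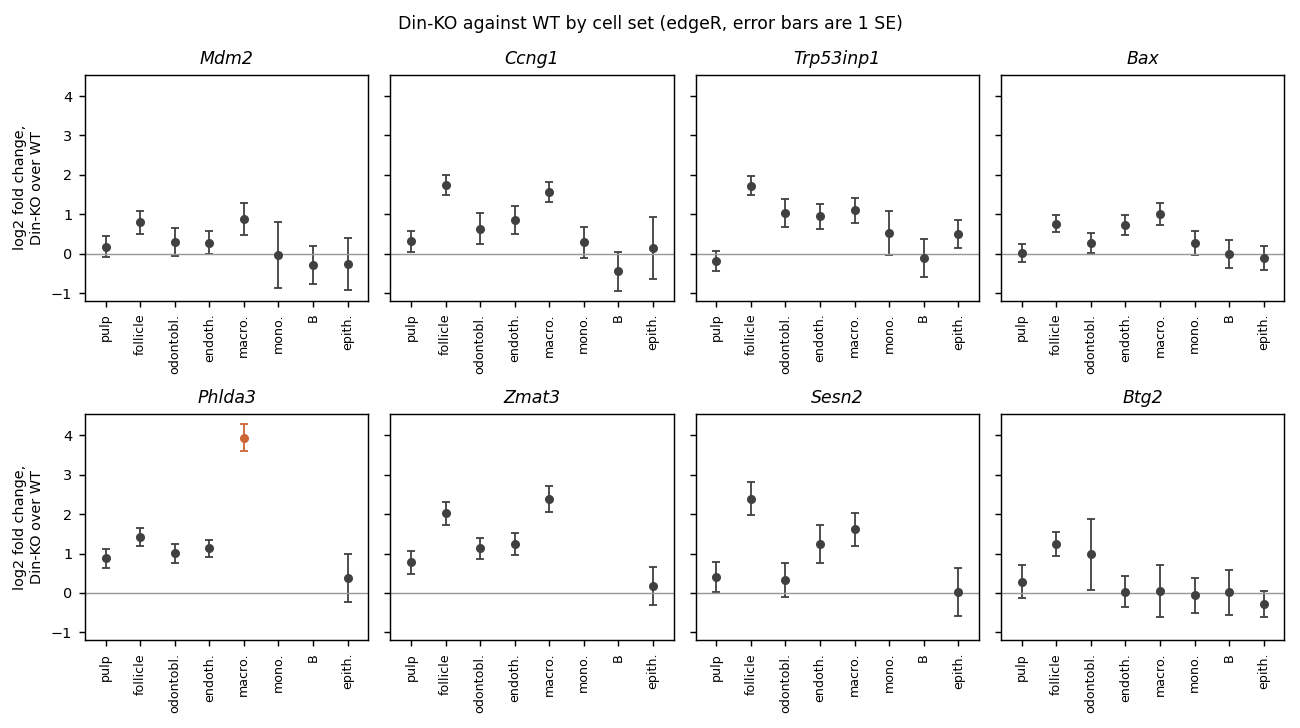
Each panel shows 1 gene, with the log2 fold change of Din-KO over WT from edgeR on the vertical axis and the cell sets along the horizontal axis. Points are estimates from 2 libraries a group, error bars are 1 SE, a missing point means that the gene was not tested in that set, and orange marks an adjusted p under 0.05. Eda2r and Gdf15 are left out because most WT sums held 3 UMIs or fewer. The orange point is Phlda3 in macrophage-like cells, at 3.95, and the pulp-like estimates lie under the follicle-like ones in all 8 panels.

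Cells other than mesenchyme asked whether the same genes differed outside the tissue the study centres on. These cells came from the same libraries whose contrast chose the genes. Calls and counts of members in them are thus not independent of that choice. In macrophage-like cells, 1387 in all, Phlda3 was the member past the test's threshold. It had 20 and 3 UMIs in WT and 413 and 63 UMIs in Din-KO, which is 3.85 and 2.74 CPM against 50.5 and 58.1 CPM. The log2 fold change was 3.95 ± 0.34 (SE), with a Benjamini-Hochberg adjusted p of 0.0272 from edgeR, which called 0.0641% of 10922 genes. Without WT replicate 1 the fold change was 4.38 and the adjusted p 0.274, and after thinning of each cell to 2000 UMIs 3.65 with an adjusted p of 0.0991, so the call was lost in both cases. Phlda3 UMIs were spread over 234 and 33 macrophage-like cells in Din-KO (32.3% and 38.4% before thinning), against 18 and 3 in WT (3.87% and 2.68%).

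Among macrophage-like cells thinned to 2000 UMIs, with 0 to 2 shallower cells a library left out, 0.648% and 0.893% held Phlda3 in WT (Wilson 95% intervals 0.221% to 1.89% and 0.158% to 4.88%) and 8.16% and 7.14% did in Din-KO (6.38% to 10.4% and 3.31% to 14.7%). Intervals here and below cover counting error only. Free RNA in droplets was not removed, and B-like cells were read beside the macrophage-like ones. There Phlda3 was found in 1 of 197 thinned cells of WT replicate 2 and in 0 of 180 (WT) and 0 of 90 and 104 (Din-KO) cells of the other libraries, which allows shares of up to 1.67%, 3.33% and 2.88%. The WT shares in macrophage-like cells were near those of B-like cells, and the Din-KO shares were above them. B-like cells are not a full measure of free RNA in macrophage-like cells. Their summed mesenchyme markers were at 4.54% and 1.43% of the mesenchyme-like level in WT, and at 2.78% and 1.02% in Din-KO. In each library this was below the macrophage-like value given next. The part of free RNA in Phlda3 was not tested. The median depths before thinning were 8933 to 10808 UMIs in macrophage-like cells and 2603.5 to 3550 UMIs in B-like cells.

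Phlda3 in Din-KO macrophage-like cells was at 60.4% and 41.8% of its level in mesenchyme-like cells of the same library. The sum of the 10 mesenchyme markers was at 8.49% and 6.55% of theirs, and in WT at 8.86% and 2.14%, where Phlda3 was at 8.83% and 4.93%. The result was seen in both large macrophage-like clusters. In the cluster led by Lyve1 and Cd209f, Phlda3 was at 3.64 and 1.75 CPM in WT, against 43.3 and 55.1 CPM in Din-KO. In the cluster led by Apoe and Cx3cr1 it was at 2.98 and 2.40 CPM in WT, against 61.9 and 70.3 CPM in Din-KO.

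The other members in macrophage-like cells did not pass the test in edgeR, although all 9 tested were on the higher side in Din-KO, with a median log2 fold change of 1.49 against -0.015 over all genes. With Phlda3 included, 6 of the 9 were under an unadjusted p of 0.05, as were 2.77% of all genes. Zmat3 was at 6.16 and 6.39 CPM in WT, against 29.1 and 36.0 CPM in Din-KO (2.39 ± 0.33, adjusted p = 0.126 from edgeR). Ccng1 was at 32.1 and 35.6 CPM in WT, against 85.8 and 109 CPM in Din-KO (1.56 ± 0.26, adjusted p = 0.214 from edgeR). DESeq2 called both of these as well as Phlda3. Bax was at 190 and 168 CPM in WT, against 354 and 348 CPM in Din-KO (1.01 ± 0.27, adjusted p = 0.907 from edgeR).

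Btg2 and Gdf15 were higher in replicate 2 than in replicate 1 of either genotype there. Btg2 was at 122 and 467 CPM in WT, against 146 and 454 CPM in Din-KO macrophage-like cells, a log2 fold change of 0.05 ± 0.67. Gdf15 was at 1.92 and 32.9 CPM in WT, against 17.7 and 63.6 CPM in Din-KO (1.49 ± 1.12). In replicate 2 the top 5 cells held 91.67% of the Gdf15 UMIs in WT and 84.06% in Din-KO. In both genes the replicate 2 library of WT was above the replicate 1 library of Din-KO, so the groups overlapped, although Gdf15 was higher in Din-KO than in WT within each replicate number. Mdm2, at 22.1 and 43.8 CPM in WT, against 39.8 and 76.5 CPM in Din-KO, also overlapped.

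In endothelium-like cells (748 cells), 0 members were called by edgeR, where 0.054% of 11116 genes were, 7 of the 9 tested were under an unadjusted p of 0.05 (2.91% of all genes were), and DESeq2 called 0. Their median log2 fold change was 0.95, against -0.0078 over all genes. Phlda3 was at 55.6 and 57.6 CPM in WT, against 123 and 121 CPM in Din-KO (1.13 ± 0.22, adjusted p = 0.288 from edgeR). Zmat3 was at 12.98 and 13.4 CPM in WT, against 28.1 and 33.7 CPM in Din-KO (1.24 ± 0.28, adjusted p = 0.458 from edgeR). In both genes the gap between groups was several times that within them. Bax was at 219 and 173 CPM in WT, against 354 and 286 CPM in Din-KO, Ccng1 at 16.4 and 32.1 CPM in WT, against 36.1 and 48.0 CPM in Din-KO, and Eda2r had 1 and 0 UMIs in WT and 51 and 14 UMIs in Din-KO. Eda2r was among the 9 tested and passed the filter on low counts through these Din-KO UMIs. Its direction and any call of it are thus no test. Without WT replicate 2, edgeR called Eda2r, Ccng1 and Trp53inp1, and 1.97% of 12166 genes in all.

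In the remaining classes edgeR called none of the members, and 0% of 6666, 7375 and 11478 genes in monocyte or dendritic-like, B-like and epithelium-like cells. No member was under an unadjusted p of 0.05 in these 3 classes, where 3.27%, 1.56% and 1.25% of genes were, and DESeq2 called no member. The median log2 fold change was 0.28 over 5 members in monocyte or dendritic-like cells, -0.11 over 5 in B-like cells and 0.082 over 8 in epithelium-like cells. Epithelium-like cells did express the 8 members tested there. Eda2r and Gdf15 had too few counts for a test, and Gdf15 was at 0 CPM with and without Fos or Atf3 in every library. Phlda3 was there at 36.4 and 81.5 CPM in WT, against 79.6 and 105 CPM in Din-KO, and Ccng1 at 19.6 and 56.8 CPM in WT, against 32.2 and 69.6 CPM in Din-KO, with overlap in both.

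Whether the genotype effect differed from that in mesenchyme-like cells was fitted within libraries, keeping in mind that the genes were chosen for the mesenchyme value. No member was called by edgeR against endothelium-like (0% of 14691 genes), macrophage-like (0.0203% of 14797), monocyte or dendritic-like (0.014% of 14275), B-like (0.0141% of 14228) or epithelium-like cells (0% of 14386). The counts of members under an unadjusted p of 0.05 were 0, 2, 1, 3 and 1 in that order, and the shares of all genes were 2.58%, 2.49%, 2.83%, 2.57% and 1.35%. Phlda3 came nearest in macrophage-like cells, with a difference of 2.84 ± 0.41 and an adjusted p of 0.117 from edgeR, and DESeq2 called it. The share of all genes that DESeq2 called there is not given.

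The levels of the genes over cell sets were not alike. Btg2 was highest in B-like cells (270 and 792 CPM in WT, 295 and 741 CPM in Din-KO), and these ranges overlapped those of monocyte or dendritic-like cells (344 and 432 CPM in WT, 220 and 540 CPM in Din-KO). Phlda3 and Zmat3 were near 0 in B-like cells (0 to 5.87 CPM and 0 to 3.92 CPM). Trp53inp1 was in WT highest in B-like cells (58.8 and 160 CPM) and pulp-like cells, which overlapped. In WT, Gdf15 had 10 and 36 UMIs in macrophage-like cells, against 7 and 5 UMIs in mesenchyme-like cells. Those of the macrophage-like cells came from 8 and 8 cells, with up to 2 and 13 UMIs in 1 cell. Bax stayed between 91.8 and 219 CPM over all the classes in WT.

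Over 24 sums (6 classes in 4 libraries, which share depth and preparation within a library), the log2(CPM + 1) profile of each member was set beside those of 9503 genes, as a description. Btg2 was most like Nfkbid (Pearson r 0.951), then Sik1. Phlda3 was most like Cttn (0.907), then Ptk7, and Zmat3 most like Rilpl1 (0.859), then Chst14. Sesn2 was most like Alg1 (0.858) and B4galt6, Bax like Isg15 (0.847) and Bst2, and Gdf15 like Ccl8 (0.847) and Siglec1. Trp53inp1 was most like Cplx2 (0.831) and Dus2, Mdm2 like Tmem164 (0.798) and Skiv2l, Ccng1 like Atp6ap1 (0.723) and Fth1, and Eda2r like Igfbp3 (0.676) and Piezo2. Within the members, Phlda3 and Zmat3 had an r of 0.84 and Phlda3 and Btg2 one of -0.71, so the members did not share 1 profile over classes.

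Fos and Atf3, immediate early genes that tissue dissociation induces, were then used to divide the mesenchyme-like cells of each library. After thinning to 2000 UMIs, 14.4% and 30.2% of WT cells and 21.3% and 38.7% of Din-KO cells held a UMI of either gene. Replicate 2 was thus higher than replicate 1 in both genotypes, and Din-KO was higher than WT within each replicate number. WT replicate 2 was above Din-KO replicate 1, so the groups overlapped. The median depth of the cells with such a UMI was 9049 and 16861.5 UMIs in WT and 6510.5 and 15247 UMIs in Din-KO, and that of the cells without one 9268.5 and 14181 UMIs in WT and 7890.5 and 13416 UMIs in Din-KO.

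Btg2 was the member that rose in the cells with Fos or Atf3. In WT it was at 93.5 CPM in such cells against 32.5 CPM in the others in replicate 1, and at 82.3 against 31.4 CPM in replicate 2. In Din-KO it was at 128 against 31.2 CPM in replicate 1 and at 145 against 66.7 CPM in replicate 2. The log2 difference was 1.502 ± 0.14 (SE), higher in 4 of 4 libraries, with an adjusted p of 0.00828 from edgeR with library as a block, and 0.226% of 13709 genes were called. With at least 3 UMIs of the 2 genes the Btg2 difference was 2.21. Without WT replicate 1 it was 1.502 with an adjusted p of 0.0712 from edgeR.

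Split on Fos alone, Btg2 had a difference of 1.501, and on Atf3 alone one of -0.045, where only 1 and 1 thinned cells of WT and 3 and 5 of Din-KO held the gene. It was 1.69 within pulp-like and 1.00 within follicle-like cells, past an adjusted p of 0.05 in edgeR in both. In macrophage-like cells it was 1.31 (adjusted p = 0.0454 from edgeR) and in endothelium-like cells 0.69 (adjusted p = 0.0543 from edgeR). Other genes of the immediate early list rose in the same cells, such as Egr1 (2.33), Junb (2.20), Nr4a1 (1.99) and Ier3 (1.29), and of its 24 tested genes 11 were called, with a median log2 difference of 1.24. Fos and Atf3 made the split and are in that list.

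The other 9 members did not pass the test. The log2 difference between cells with and without Fos or Atf3 was 0.06 ± 0.09 for Mdm2, 0.04 ± 0.08 for Phlda3, -0.04 ± 0.16 for Sesn2 and -0.09 ± 0.08 for Bax. It was 0.15 ± 0.11 for Trp53inp1, -0.18 ± 0.10 for Zmat3 and -0.20 ± 0.08 for Ccng1. Eda2r had -0.55 ± 0.31. These adjusted p-values from edgeR ran from 0.483 for Ccng1 to 0.986 for Sesn2. Gdf15 had a difference of 2.03 ± 0.60 (adjusted p = 0.359 from edgeR), and with Atf3 alone one of 5.001, which passed (adjusted p = 2.6e-06 from edgeR). That call rested on 5 cells of Din-KO replicate 2, at 204 CPM, while the 1, 1 and 3 Atf3 cells of the other libraries held no Gdf15. Over the 10 members the median difference was 0.0011, against -0.0088 over all genes, and over 33 other p53 targets -0.056 with 0 called.

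**Figure D3:**
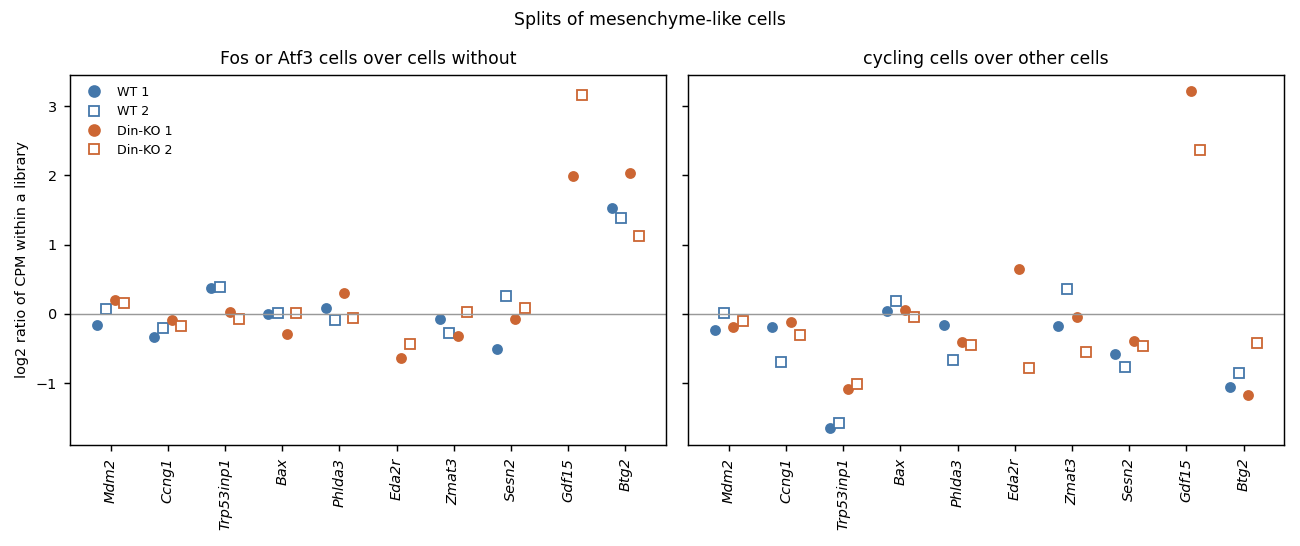
The vertical axis is the log2 ratio of CPM between 2 sets of mesenchyme-like cells of 1 library. The left panel is for cells with and without a Fos or Atf3 UMI after thinning, and the right panel for cycling and other cells. Each point is 1 library, blue for WT, orange for Din-KO, circles for replicate 1 and squares for replicate 2, and ratios resting on 3 UMIs or fewer are not drawn. On the left the 4 Btg2 points lie above 1 and those of Mdm2, Ccng1, Bax and Phlda3 near 0, and on the right the Trp53inp1, Phlda3, Sesn2 and Btg2 points lie under 0.

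The Din-KO against WT values were then read within each of the 2 sets of cells, as a description. In cells without Fos or Atf3, Ccng1 had a log2 difference of 1.19, Phlda3 one of 1.15, Zmat3 one of 1.49, Sesn2 one of 1.39 and Btg2 one of 0.60. In cells with Fos or Atf3 the values were 1.24 for Ccng1, 1.18 for Phlda3, 1.54 for Zmat3, 1.39 for Sesn2 and 0.58 for Btg2. In follicle-like cells without Fos or Atf3, Ccng1 was at 19.96 and 28.5 CPM in WT, against 77.7 and 95.7 CPM in Din-KO. A test of the genotype by stress difference called 0 members in edgeR and in DESeq2 (0% of 13709 genes in edgeR), with 1 member under an unadjusted p of 0.05 beside 4.84% of all genes. That difference was 0.07 ± 0.18 for Phlda3, 0.07 ± 0.17 for Ccng1 and 0.07 ± 0.29 for Btg2. For Btg2 the approximate 95% interval from the SE ran from -0.50 to 0.64. Not all members were near 0. Trp53inp1 had a negative difference, from -0.55 to -0.41 over the processing alternatives. Its ratio of cells with to cells without Fos or Atf3 was 1.30 and 1.31 in WT and 1.02 and 0.95 in Din-KO. Within pulp-like cells this ratio was 1.20 and 1.18 in WT and 0.86 and 1.19 in Din-KO. In follicle-like cells it was 0.47 and 1.21 in WT and 0.87 and 0.96 in Din-KO. In odontoblast-like cells it was 1.51 and 1.92 in WT and 1.30 and 2.31 in Din-KO. The genotypes thus overlapped within each set, and the part of a different mix of sets was not tested. The genotype by stress difference of Gdf15, with few UMIs, ran from 1.17 to 7.38 over the alternatives.

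p53 targets restrain the cell cycle, so mesenchyme-like cells with at least 2 thinned UMIs of cycling genes were compared with cells without one. The split was not made within pulp-like, follicle-like or odontoblast-like cells, so a different mix of these sets among cycling cells was not tested. Trp53inp1 fell by 1.21 ± 0.12 on the log2 scale in cycling cells (adjusted p = 7.5e-05 from edgeR). In WT it was at 19.9 CPM in cycling against 62.4 CPM in other cells of replicate 1, and at 9.91 against 29.6 CPM in replicate 2. In Din-KO it was at 31.2 against 66.3 CPM and at 36.7 against 74.0 CPM, so it was lower in 4 of 4 libraries. Btg2 fell by 0.78 ± 0.12 (adjusted p = 0.000784 from edgeR), Phlda3 by 0.34 ± 0.10 (adjusted p = 0.021 from edgeR) and Sesn2 by 0.44 ± 0.15 (adjusted p = 0.0413 from edgeR), each lower in all 4 libraries. These 4 members compare with 20.4% of 13675 genes called lower. Gdf15 rose by 1.92 ± 0.64 (adjusted p = 0.0375 from edgeR), where 22.7% of genes were called higher.

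In Din-KO, Gdf15 was at 1.95 against 0.21 CPM in replicate 1 and at 16.0 against 3.09 CPM in replicate 2, and in WT the cycling cells held too few UMIs for a ratio. The call rested on few cells. Of all Gdf15 UMIs in Din-KO mesenchyme-like cells (21 and 67), the top 5 cells of each library held 76.2% and 67.2%. Without Din-KO replicate 1 the Gdf15 difference was 1.56 with an adjusted p of 0.124 from edgeR. The Sesn2 call was lost when any 1 library was left out (differences of -0.40 to -0.53), and that of Phlda3 without WT replicate 2 (-0.27) or Din-KO replicate 2 (-0.32). Mdm2 (-0.05), Zmat3 (-0.06), Bax (0.14) and Ccng1 (-0.23) did not pass. Trp53 rose by 0.63 ± 0.08 (adjusted p = 0.000344 from edgeR) and Cdkn1a fell by 0.87 ± 0.17 (adjusted p = 0.00315 from edgeR) in the same cells.

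Single cells were read for joint presence, with every cell thinned to 2000 UMIs. UMIs of at least 3 of the 10 genes were found in 1.80% and 1.90% of WT follicle-like cells (Wilson 95% intervals 0.826% to 3.86% and 0.964% to 3.70%). In Din-KO follicle-like cells the shares were 13.2% and 24.8% (10.1% to 17.1% and 20.3% to 29.9%). These cells are among those whose UMIs chose the genes, so the shares are a description. In pulp-like cells the shares were 2.25% and 3.28% in WT (1.69% to 2.98% and 1.67% to 6.34%) and 3.35% and 4.76% in Din-KO (2.68% to 4.18% and 2.43% to 9.11%), and these intervals overlapped. In odontoblast-like cells none of 212 and 161 WT cells had 3 of the genes, which allows shares of up to 1.42% and 1.86%, and 4.18% and 4.35% of Din-KO cells had them.

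**Figure D4:**
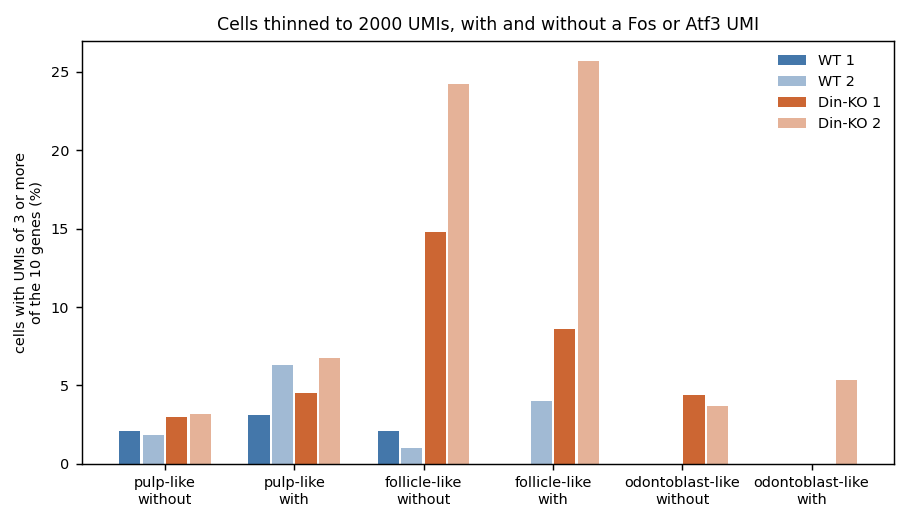
Bars give the percentage of cells with UMIs of 3 or more of the 10 genes after thinning to 2000 UMIs, on an axis that starts at 0, for pulp-like, follicle-like and odontoblast-like cells without and with a Fos or Atf3 UMI. Each bar is 1 library, blue for WT and orange for Din-KO, with replicate 2 in the paler shade, and there are no error bars. The follicle-like Din-KO bars stand at 14.8% and 24.3% without and at 8.60% and 25.7% with Fos or Atf3, and no WT bar is above 6.33%.

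Follicle-like cells without any of the 10 genes made up 52.4% and 50.5% in WT and 33.3% and 24.4% in Din-KO. Between follicle-like Din-KO cells with and without Fos or Atf3, the shares with 3 or more genes were lower with them in replicate 1 and higher in replicate 2, and the Wilson 95% intervals overlapped in both (11.1% to 19.5% without and 4.42% to 16.1% with in replicate 1, 18.9% to 30.6% and 18.3% to 34.8% in replicate 2).

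The libraries also differed in sex, and cells of 1 sex were summed alone, as a description on part of the cells that chose the genes. Among mesenchyme-like cells that held 3 or more UMIs of Xist and none of the Y-linked genes, 9 of the 10 genes were higher in both Din-KO libraries, as were 10% of 14225 genes, Mdm2 being the exception at 21.4 and 27.5 CPM in WT, against 20.7 and 44.5 CPM in Din-KO. Ccng1 was at 16.3 and 23.8 CPM in WT, against 26.8 and 57.5 CPM in Din-KO, and Phlda3 at 43.8 and 55.3 CPM in WT, against 79.4 and 120 CPM in Din-KO. Genotype and any other difference between the libraries of the same label cannot be told apart with 2 libraries a group.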

How the data were processed

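The deposited files hold raw UMI counts, which the authors made from 10x 3′ reads with Cell Ranger 6.0.2 on mm10/GRCm38 and did not normalize. Following the study's methods, a barcode stayed if it had 1000 or more genes and no more than 10% mitochondrial or 3% hemoglobin UMIs. Seurat 5.3.0 (2000 variable genes, 30 principal components, resolution 1, libraries integrated) gave 31 clusters, named from marker lists. Scrublet marked only 0.221% of cells as doublets and was taken not to have worked, so the 5% with the highest scores were left out as an alternative. Median depth was 9178 and 11587.5 UMIs per kept cell in WT and 8016 and 11486.5 in Din-KO.

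UMIs were summed per library and cell set with at least 20 cells in every library, and tested in edgeR 4.0.16 (TMM, filterByExpr, quasi-likelihood, Benjamini-Hochberg over all genes at 0.05). DESeq2 1.42.0 was an alternative. Within-library splits had library as a covariate. The SE of an edgeR value was its absolute log2 value divided by the square root of the F statistic of its test. The interval given for Btg2 is a normal one from that SE. It takes no account of the few residual degrees of freedom, so it is narrower than one from the test. The scripts were tested on simulated data with 200 changed genes. At the gene-wise spread of the mesenchyme-like sums, edgeR recovered 0% of 2-fold and 0% of 4-fold changes between Din-KO and WT. DESeq2 recovered 8% and 62% there, with 40 false calls. At a spread smoothed over genes edgeR recovered 5% and 52%. In the Fos or Atf3 split edgeR recovered 75% and 97%, with 17 false calls. A genotype contrast without edgeR calls is thus weak evidence of no difference. The 10 genes and all lists were chosen with earlier results of these data known. Named beside them were Cdkn1a, Trp53, Mdm4, Fos, Atf3, Ddit3 and Trib3, up to 5 called genes per list and direction by fold, and the 2 genes most like each member with a mean of at least 10 CPM. Mdm4, Ddit3 and Trib3 passed no test. The odontoblast-like sums, the sums of cells with Fos or Atf3, the stress splits of other classes and the comparison of genotype effects between mesenchyme-like sets were added after seeing the data. Single cluster sums and marker sums were likewise chosen then.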

Additional observations from a re-analysis of the deposited data

Results flagged for a closer look

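The Din-KO against WT difference of Cdkn1a, which encodes p21 and is a p53 target outside the 10 genes, was larger in macrophage-like than in mesenchyme-like cells by 2.28 ± 0.27 on the log2 scale (SE, adjusted p = 0.0372 from edgeR, for the difference itself, with 0.0203% of 14797 genes called). DESeq2 gave 2.23. Cdkn1a was at 37.3 and 78.5 CPM in WT, against 408 and 740 CPM in Din-KO macrophage-like cells. It was at 84.0 and 149 CPM in WT, against 180 and 364 CPM in Din-KO mesenchyme-like cells. The mesenchyme-like sum mixed unlike sets. Among cells without Fos or Atf3, follicle-like ones had 49.7 and 16.5 CPM in WT, against 298 and 380 CPM in Din-KO. Pulp-like ones had 31.6 and 51.6 CPM in WT, against 51.5 and 79.3 CPM in Din-KO. Odontoblast-like ones had 424 and 460 CPM in WT, against 546 and 595 CPM in Din-KO. Whether the macrophage-like difference exceeded the follicle-like one was not tested. In macrophage-like cells alone the edgeR fold change was 3.37 with an adjusted p of 0.114. It was apart in both large macrophage-like clusters, with 36.0 and 49.1 CPM in WT, against 367 and 756 CPM in Din-KO in the cluster led by Lyve1, and 35.2 and 125 CPM in WT, against 481 and 853 CPM in Din-KO in the cluster led by Apoe and Cx3cr1.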

How the results depend on the processing

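Counts are of the 10 genes past an adjusted p of 0.05. In mesenchyme-like cells, where the contrast chose the genes and the counts are no test of them, 0 became 1 without the filter on low counts, 1 with DESeq2 and 4 with the replicate block (Eda2r, Zmat3, Phlda3 and Ccng1), while genes called in all went from 0 to 7, 17 and 103. In endothelium-like cells 0 became 2 without the filter and 6 with the replicate block, with 6 genes in all becoming 216 and 266 (56 with DESeq2), and 0 to 3 with a library left out. In macrophage-like cells 1 became 5 without the filter, 3 with DESeq2, 0 with thinned cells and 5 with the replicate block, with 7 genes in all becoming 156, 45 and 126 (filter, DESeq2, block), and 0 to 2 with a library left out. The difference between macrophage-like and mesenchyme-like effects went from 0 to 1 (Phlda3) without the filter, with DESeq2, without the highest doublet scores, with thinned cells and with any library left out (1 to 1). Against B-like cells leaving out a library gave 0 to 1, and follicle-like against pulp-like effects gave 1 with DESeq2. In the Fos or Atf3 split 1 became 0 with no replicate block and 0 in endothelium-like cells, and 0 to 1 with a library left out, and the split on Atf3 alone turned Btg2 to -0.045. Genes called in all went from 31 to 190 without the filter and 89 with DESeq2. In cycling cells 5 became 3 with DESeq2, 2 with thinned cells and 3 with at least 3 cycling UMIs, and 2 to 4 with a library left out. Members higher in both Din-KO libraries were 8 of 10 in mesenchyme-like cells (11.3% of all genes) and 10 of 10 in follicle-like cells (15.6%). They were 4 of 9 in pulp-like cells (10.3%) and 5 of 9 in odontoblast-like cells (11.4%). The causes were not tested. Of single-gene values, 1614 kept direction and call, 94 moved by more than the spread, 36 gained and 19 lost the call, and 1 reversed.

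Libraries with the same replicate number deviated together (r = 0.885 over 9071 genes), but 2 pairs cannot show that the numbers pair the samples, so the replicate block is given here alone. Low counts limit Eda2r and Gdf15 in WT, and 2 libraries a group limit every test.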
